A study of Mus musculus with 12 samples.

Results

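The cysteine tRNA loci are the 57 features of a small RNA table of mouse oocytes whose name carries a tRNA number and the amino acid Cys. They were taken by name, with no use of their levels, from 435 tRNA loci among 2030 listed features. All 57 carry the anticodon GCA. The oocytes had been picked by hand out of ovaries that received no hormone stimulation, and small RNA was sequenced in 12 libraries, 4 per group. The descendant libraries came from mice that were themselves genetically wild type but had Khdc3-null grandfathers, with wild type grandmothers. The Khdc3-null libraries came from mice without Khdc3, a gene of the subcortical maternal complex, a set of proteins that oocytes store for the first divisions of the embryo. The wild type libraries came from mice that were wild type and had only wild type ancestors. The series asks how Khdc3 bears on metabolism over generations. Age, strain, the allele, and the number of oocytes and animals per library are not given in the labels, nor whether libraries within a group stem from different animals. P-values thus measure the spread between libraries, which may be technical.

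Transfer RNAs carry amino acids to the ribosome, and the one with anticodon GCA reads the cysteine codons UGC and UGU. Their genes are transcribed by RNA polymerase III from promoter elements inside the gene and are present in many near-identical copies, of which only some are active in a given cell. Small RNA libraries hold tRNA fragments and, to a varying degree, pieces of the mature tRNA, and base modifications can stop the reverse transcriptase, so reads on a locus reflect transcription, cleavage and modification together. In mouse, sperm tRNA fragments have been studied as carriers of information between generations.

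By the chromosome in their names, 49 loci lie on chromosome 6, 5 on chromosome 11, 2 on chromosome 9 and 1 on chromosome 17. The chromosome 6 names fall into 2 runs of tRNA numbers, 21 loci numbered between 157 and 182 and 28 loci numbered between 1005 and 1034. RefSeq annotates 56 cysteine tRNA genes with this anticodon on GRCm38.p6, the assembly behind mm10, and its counts per chromosome were 48, 5, 2 and 1 in the same order. No file pairs the names of the table with the RefSeq genes, so a level cannot be assigned to a position. On chromosome 6, 47 of the 48 RefSeq genes stand between positions 48133937 and 48363603, a stretch of 229667 bp bounded by the protein-coding genes Zfp746 and Krba1. The remaining chromosome 6 gene starts at 47978997, near Zfp956. Over all 48 genes on chromosome 6 the median distance between starts was 3509 bp. The pair on chromosome 9 spans 104400120 to 104404127, the 5 on chromosome 11 span 97769829 to 97988994 with the nearest coding genes 1700001P01Rik, Lasp1 and Arl5c, and the gene on chromosome 17 spans 71599271 to 71599342, at 9738 bp from Spdya. Of the 56 genes 55 are 72 bases long, 7 lie inside a longer GENCODE M21 gene, the lincRNA Gm16630, and 0 overlap an exon. Since the genes are of nearly equal length, levels of cysteine loci are set side by side without a length correction.

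Levels are given in RPM, reads per fixed number of mapped reads, the same number for every library. Mapped reads ranged from 2918620 to 7640554 per library, so that 1 read was worth 0.131 to 0.343 RPM, and a count of 0 allows up to 3 reads, or 0.393 to 1.03 RPM. Such limits cover counting error only. Khdc3-null replicate 1 stood apart from the rest, with a median correlation of 0.918 to the other 11 libraries over all features past the filter, against 0.946 to 0.961 for the others. The table lists no mRNA, so the Khdc3 genotype could not be checked. Oocyte identity could not be checked from mRNA either, and miRNA hairpins known from ovarian somatic cells were present in every library. The summed level of 8 hairpins of stroma and vessels was 8680 to 10244 RPM in descendant, from 11228 to 13342 RPM in Khdc3-null libraries and 10926 to 15019 RPM in wild type libraries. It was lower in every descendant library than in any other. For 7 listed granulosa hairpins the sums were 3257 to 3975 RPM in descendant, 3566 to 4743 RPM in Khdc3-null libraries and 3376 to 4792 RPM in wild type libraries. The 3 erythrocyte hairpins summed to 73.7 to 232 RPM in descendant, 79.1 to 318 RPM in Khdc3-null libraries and 87.4 to 105 RPM in wild type libraries, with Mir144 at 0 in at least 1 library. The 5 listed leukocyte hairpins summed to 88.3 to 166 RPM in descendant, 140.2 to 221 RPM in Khdc3-null libraries and 127 to 139 RPM in wild type libraries. As a list of a tissue not sampled, 6 muscle hairpins summed to 692 to 945 RPM in descendant libraries. Their sums were 718 to 800 RPM in Khdc3-null and 794 to 1048 RPM in wild type libraries, above the erythrocyte and leukocyte sums. Most of each sum was Mir133b, with 624 to 967 RPM in single libraries. In contrast, Mir1a-1, Mir1a-2 and Mir206 reached at most 8.25, 10.9 and 12.3 RPM in any library. Presence of a hairpin alone thus does not identify a cell type. The part of somatic cells in the results on cysteine tRNA loci was not tested. In bulk samples, fewer cells of a type and less RNA per cell cannot be told apart.

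Cysteine has the most loci of the 23 isotypes in the table, 13.1% of all tRNA loci, but gave few of the reads. An isotype here is the set of loci with the same amino acid label in the name, with SeC, SeC(e) and Sup counted apart. Summed over the 57 loci the level averaged 792 RPM, or 1.14% of the reads on tRNA loci, the eleventh highest of the isotypes. One locus, chr6.trna1015, held 85.5% of the cysteine reads on average, and between 81.2% and 91.3% in single libraries. Its mean of 679 RPM was 54.2 times that of the next locus, chr6.trna1020. Including chr6.trna1020, 14 loci averaged between 2 and 13 RPM, and the other 42 averaged under 2 RPM.

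**Figure D1:**
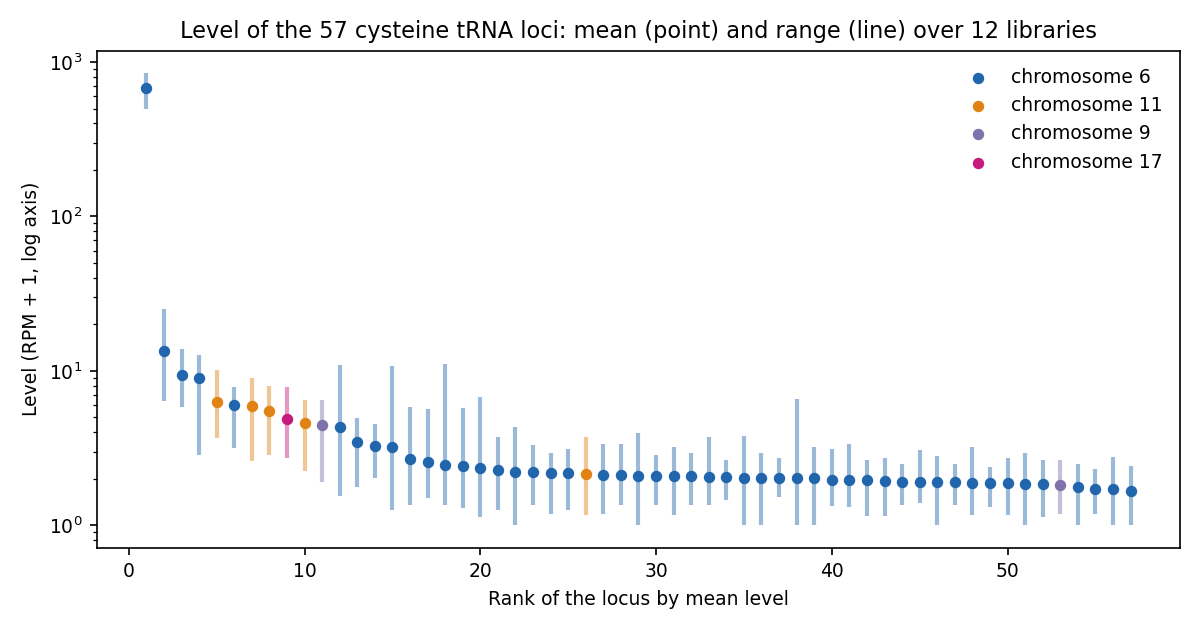
Mean level (points) and range over 12 libraries (lines) of the 57 cysteine tRNA loci, ranked by mean; the y axis is RPM + 1 on a log scale and colours give the chromosome in the name. The locus chr6.trna1015 stands 54.2 times above the next in mean RPM, and 42 loci lie under 2 RPM.

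This concentration on 1 locus was the highest among the 20 isotypes with at least 5 loci, where the most abundant locus held 72.4% of the reads of alanine tRNA loci, 56.2% for glutamine and 7.54% for glycine, the lowest. The glycine loci with anticodon GCC show another distribution, since 10 of 14 had mean levels between 939 and 950 RPM. How reads that align equally well to several loci were assigned is not given in the sources used here. Loci of near-identical sequence may share reads in either way, so the levels of single cysteine loci are not independent measurements, and a high level on 1 name may stand for more than 1 gene copy.

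**Figure D2:**
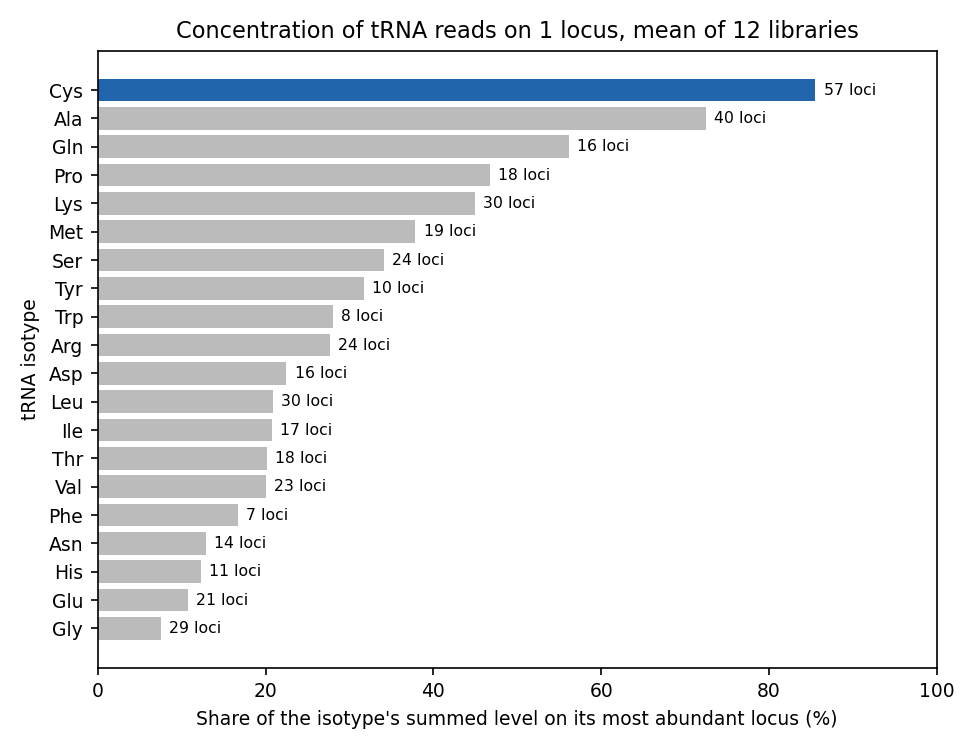
Share of the summed level held by the most abundant locus, in percent, for the 20 tRNA isotypes with at least 5 listed loci (bars, mean over 12 libraries; the number of loci stands beside each bar). Cysteine, at 85.5% over 57 loci, is the highest, and glycine, at 7.54%, the lowest.

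The leading locus chr6.trna1015 had 815, 754, 493 and 663 RPM in descendant libraries, 639, 628, 612 and 668 RPM in Khdc3-null libraries, and 723, 695, 844 and 607 RPM in wild type libraries. The Khdc3-null libraries lay close together, inside the ranges of both other groups, and all groups overlapped. The group means were 681 ± 140 RPM in descendant, 637 ± 23.6 RPM in Khdc3-null libraries and 717 ± 97.9 RPM in wild type libraries (SD, n = 4 each). Neither the 95% interval of the log2 change between Khdc3-null and wild type libraries, -0.48 to 0.15, nor that between descendant and wild type libraries, -0.40 to 0.22, reached a 2-fold change, and for descendant against Khdc3-null libraries it was -0.24 to 0.39 (limma on log2 of RPM + 1). At this level the added 1 has little weight, and the intervals were the narrowest of the loci tested. At loci of few RPM the added 1 makes log2 changes smaller than those of the levels themselves.

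The sum over all 57 loci followed this locus and overlapped in all comparisons, with 779 ± 132 RPM in descendant, 766 ± 43.8 RPM in Khdc3-null libraries and 831 ± 114 RPM in wild type libraries (SD, n = 4 each). As a share of tRNA reads it was 1.17% in descendant, 1.05% in Khdc3-null and 1.21% in wild type libraries, on average. The other 56 loci together gave 97.6 ± 13.4 RPM in descendant, 129 ± 25.6 RPM in Khdc3-null libraries and 114 ± 24.0 RPM in wild type libraries (SD, n = 4 each). Here the descendant libraries ranged from 77.8 to 107 RPM, the Khdc3-null libraries from 93.9 to 155 RPM and the wild type libraries from 94.5 to 147 RPM, so that these groups overlapped too.

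**Figure D3:**
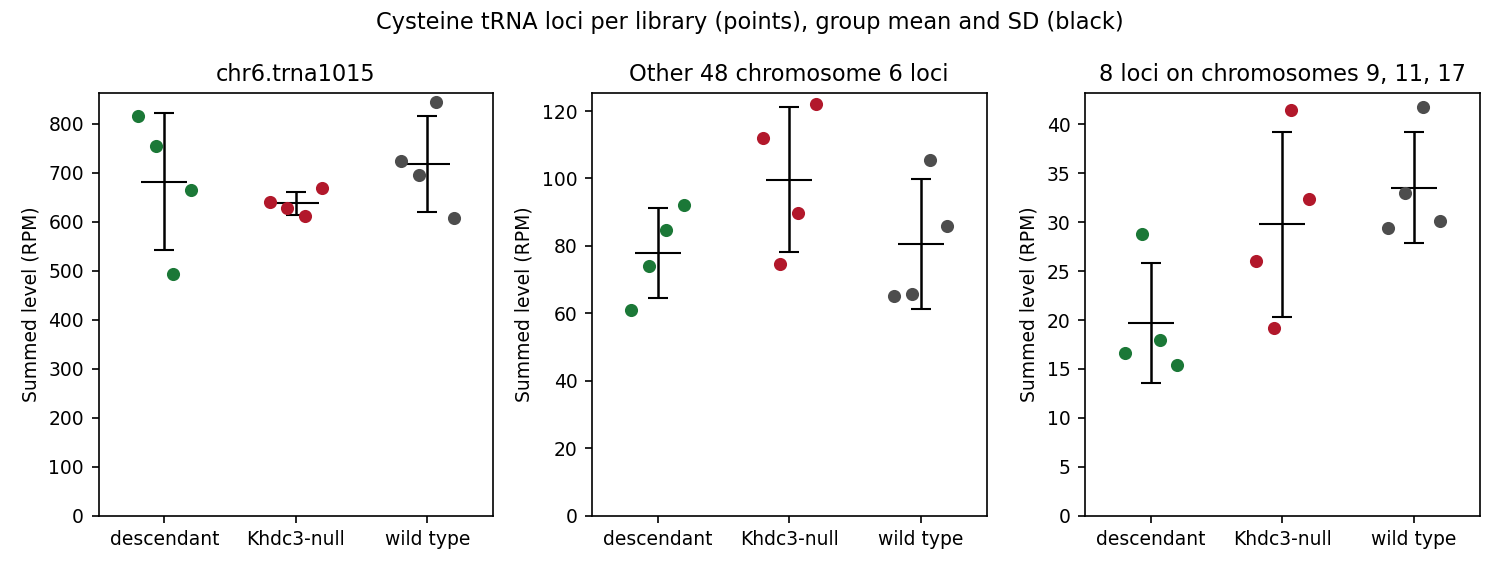
Summed level in RPM per library (points) with group mean and SD (black, n = 4) of chr6.trna1015, of the other 48 chromosome 6 loci and of the 8 loci on chromosomes 9, 11 and 17, each on its own axis from 0. The groups overlap in the first and second panel; in the third, the descendant libraries, at 15.4 to 28.8 RPM, lie below the wild type libraries, at 29.4 to 41.7 RPM.

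A test across features was possible for the loci that reached 1.61 RPM, the value of 10 reads in a library of median depth, in 4 or more libraries. Of the cysteine loci 20 did so, or 35.1%, and 37 did not, whereas 9 of the 378 other tRNA loci fell below this level. The 37 loci had means between 0.659 and 1.55 RPM and a median of 5 reads per library. Of their 444 values 15 were 0 and 144 were 3 reads or fewer.

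For Khdc3-null against wild type libraries, 0 of the 20 cysteine loci and 0% of the 1889 features tested passed an adjusted p of 0.05 (limma, Benjamini-Hochberg over all features). At an unadjusted p under 0.05, 1 cysteine locus was higher and 0 were lower, beside 1.54% and 3.49% of all features, and limma-voom on reads recovered from the table also gave 1 cysteine locus at that level and 0 calls. The locus was chr6.trna1020, the second most abundant. It had 20.3, 11.3, 10.4 and 24.0 RPM in Khdc3-null libraries, against 6.22, 10.5, 11.4 and 5.41 RPM in wild type libraries. The groups overlapped, since Khdc3-null replicates 2 and 3 lay at the level of wild type replicates 2 and 3. Its log2 change was 0.88 (SE 0.37, unadjusted p = 0.0336, adjusted p = 0.945 by limma), and the descendant libraries had 12.5, 8.25, 15.4 and 14.7 RPM.

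Next by p came chr6.trna179, which had 9.73, 2.74, 0.58 and 2.06 RPM in Khdc3-null libraries, against 0.87, 0.77, 0.25 and 4.99 RPM in wild type libraries. A single library was high in each group, and its log2 change was 0.74 (SE 0.62, adjusted p = 0.966 by limma). The locus chr6.trna1015 followed, with a log2 change of -0.16 (SE 0.15, adjusted p = 0.990 by limma). Over all 57 loci 22 had a lower mean in Khdc3-null than in wild type libraries, or 38.6%, against 54.4% of all listed features, and the median log2 change without a filter was 0.05, against -0.04 over all features. The 22 became 13 without Khdc3-null replicate 2, the shallowest library, and also 13 without wild type replicate 3, beside 55.9% and 53.8% of all features.

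Every Khdc3-null library exceeded every wild type library at 2 of the 57 loci, 3.51%, beside 1.18% of all listed features, and the reverse held at 0 loci, beside 1.87%. At chr6.trna177 the Khdc3-null libraries had 4.73, 1.37, 1.17 and 1.65 RPM, against 0.29, 0.31, 0.74 and 0.97 RPM in wild type libraries. At chr6.trna1022 the Khdc3-null libraries had 1.10 to 1.37 RPM, against 0.31 to 1.01 RPM in wild type libraries. Both loci were below the filter, with 2 to 25 reads per library at chr6.trna177 and 2 to 8 at chr6.trna1022, and without the filter neither passed (the smallest adjusted p of a cysteine locus by limma was 0.847).

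For descendant against wild type libraries, again 0 of the 20 cysteine loci and 0% of all features tested passed the adjusted threshold. At an unadjusted p under 0.05, 1 cysteine locus was lower and 0 were higher, beside 2.28% and 1.8% of all features, and limma-voom gave 0 cysteine loci at that level. The lower locus was chr6.trna162, which had 0.54, 0.79, 2.69 and 1.08 RPM in descendant libraries, against 1.01, 6.16, 9.88 and 3.33 RPM in wild type libraries. Wild type replicate 1 lay within the descendant range, so the groups overlapped. The log2 change was -1.25 (SE 0.54, unadjusted p = 0.0367, adjusted p = 0.946 by limma).

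The locus chr9.trna593 had 1.79, 3.01, 3.19 and 0.90 RPM in descendant libraries, against 4.34, 4.77, 5.43 and 3.61 RPM in wild type libraries. All descendant libraries were below all wild type libraries, with a log2 change of -0.84 (SE 0.40, adjusted p = 0.946 by limma). The locus chr11.trna1433 had 2.33, 5.10, 1.85 and 2.69 RPM in descendant libraries, against 4.48, 5.23, 5.93 and 5.55 RPM in wild type libraries. Only descendant replicate 2 reached the wild type range, and the log2 change was -0.72 (SE 0.37, adjusted p = 0.946 by limma).

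Counted over all 57 loci, 44 had a lower mean in descendant than in wild type libraries, or 77.2%, against 51.8% of all listed features. The median log2 change without a filter was -0.21, against -0.02 over all features and -0.07 over the 378 other tRNA loci. Of the latter 61.4% had a log2 change below 0. Among 18 other isotypes with at least 5 loci past the filter, medians ran from -0.57 for histidine to 0.26 for methionine, beside -0.40 for cysteine. Every descendant library was below every wild type library at 5 loci, 8.77%, beside 1.58% of all listed features, and above at 1 locus, beside 1.23%. Besides chr9.trna593, the 5 were chr11.trna1432, chr6.trna1031, chr6.trna1013 and chr6.trna1009. Of these, chr11.trna1432 had 3.59, 4.32, 3.36 and 1.61 RPM in descendant libraries, against 5.06, 5.39, 6.42 and 5.27 RPM in wild type libraries, while the 3 chromosome 6 loci were below the filter. The lowest was chr6.trna1009, with 0 to 0.34 RPM in descendant libraries, against 0.72 to 1.39 RPM in wild type libraries. Opposite to these, chr6.trna170 had 0.72, 0.52, 0.34 and 4.84 RPM in descendant libraries, against 0.14, 0.15, 0.25 and 0.28 RPM in wild type libraries, with most of the reads in descendant replicate 4.

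The number of loci with every descendant library lower was 3 when levels were scaled to all tRNA reads, beside 1.08% of all listed features. It was 10 without descendant replicate 2, 10 without wild type replicate 1 and 8 without descendant replicate 4. The shares over all features rise there as well, to 2.96%, 3.20% and 3.35%, since leaving out a library can only keep or raise such a count. The loci share sequence and perhaps reads, so that such counts do not add up independent measurements.

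**Figure D4:**
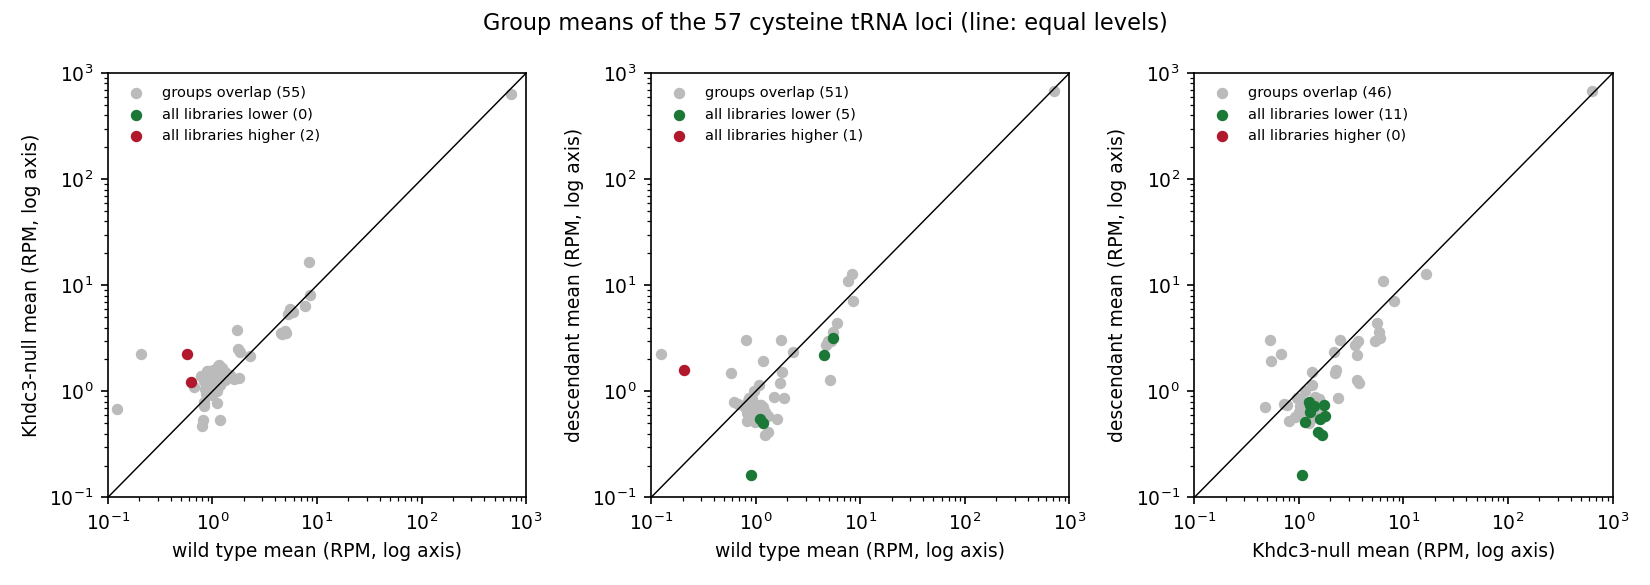
Group means in RPM of the 57 cysteine tRNA loci on log axes, for Khdc3-null (y axis) against wild type (x axis), descendant against wild type and descendant against Khdc3-null libraries; points below the line are lower in the group on the y axis. Green points are the 0, 5 and 11 loci at which every library of that group is lower, and red points the 2, 1 and 0 at which every library is higher.

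The 8 loci outside chromosome 6 differed in the same direction from locus to locus in these means. At all 8 the descendant mean was below the wild type mean, beside 51.8% of all listed features. It was also below the Khdc3-null mean at all 8, beside 44.0% of all listed features. Grouping by chromosome was planned, but pooling these 8 loci was not. Their summed level was 16.7, 28.8, 18.0 and 15.4 RPM in descendant libraries, 26.0, 19.2, 41.5 and 32.4 RPM in Khdc3-null libraries, and 29.4, 32.9, 41.7 and 30.1 RPM in wild type libraries. Each descendant library was below each wild type library, if by a small margin for descendant replicate 2, and the descendant and Khdc3-null libraries overlapped. The ratio of means was 0.588 for descendant over wild type, 0.662 for descendant over Khdc3-null and 0.888 for Khdc3-null over wild type libraries. Expressed as a share of all tRNA reads, the sum was 0.0200% to 0.0474% in descendant and 0.0402% to 0.0649% in wild type libraries, and these ranges overlapped. By chromosome, the 5 loci on chromosome 11 averaged 13.9 ± 4.16 RPM in descendant and 23.1 ± 3.51 RPM in wild type libraries, and the pair on chromosome 9 averaged 2.80 ± 1.09 RPM in descendant and 5.52 ± 0.992 RPM in wild type libraries (SD, n = 4 each). The locus on chromosome 17, chr17.trna457, had 2.33, 5.24, 2.18 and 2.15 RPM in descendant libraries, against 4.63, 4.93, 6.92 and 3.33 RPM in wild type libraries, with the groups overlapping through descendant replicate 2. The summed level of the stroma and vessel hairpins given above was likewise lower in every descendant library than in every wild type library. Each of these hairpins taken singly overlapped between the 2 groups, and their part in the difference at the cysteine loci was not tested.

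For descendant against Khdc3-null libraries, 0 of the 20 cysteine loci and 0% of all features passed the adjusted threshold, and 0 cysteine loci had an unadjusted p under 0.05 in either direction, beside 3.65% of all features higher and 2.75% lower. By limma-voom the number of cysteine loci at that level was 0 as well, and 1 with sample quality weights. The smallest p was that of chr6.trna1023, which ran opposite to most loci. It had 12.2, 7.07, 12.8 and 12.0 RPM in descendant libraries, against 7.10, 4.80, 5.55 and 8.23 RPM in Khdc3-null libraries. Only descendant replicate 2 lay within the Khdc3-null range, and the log2 change was 0.69 (SE 0.33, unadjusted p = 0.0560, adjusted p = 0.722 by limma). Wild type libraries had 7.09, 8.78, 8.65 and 6.24 RPM at this locus.

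At chr6.trna1016 the descendant libraries had 0.36, 0.26, 0.67 and 1.08 RPM, against 2.10, 2.06, 1.75 and 1.23 RPM in Khdc3-null libraries. All 4 descendant libraries were lower, and the log2 change was -0.82 (SE 0.42, adjusted p = 0.723 by limma). At chr6.trna162, named above, the Khdc3-null libraries had 1.58, 3.77, 5.41 and 3.56 RPM, and the log2 change of descendant against Khdc3-null libraries was -1.02 (SE 0.54, adjusted p = 0.731 by limma). This locus also had the smallest unadjusted p among the cysteine loci in limma's F test for any difference among the 3 groups, 0.0811.

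**Figure D5:**
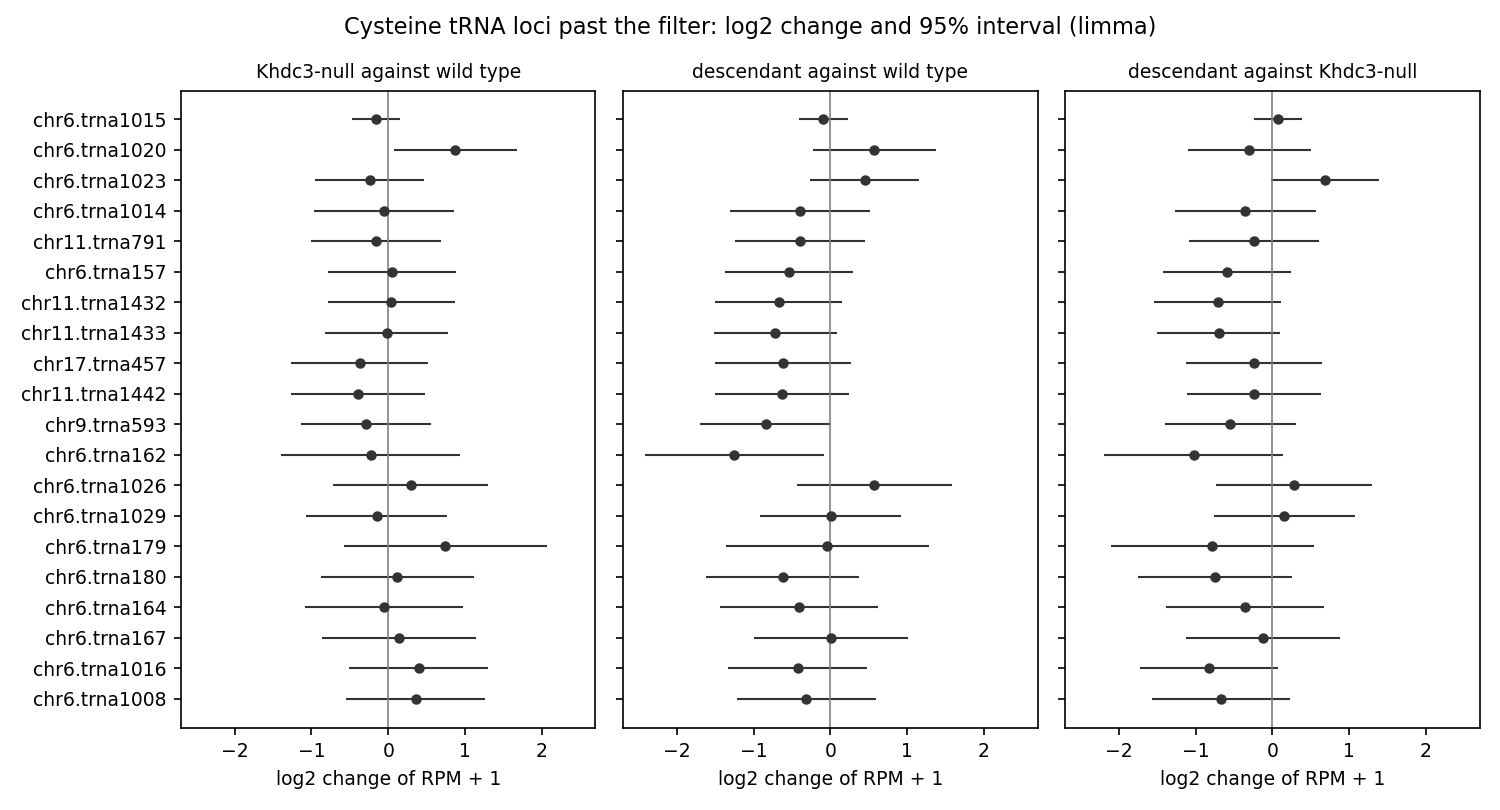
Log2 change of RPM + 1 (points) with 95% intervals from limma (lines) for the 20 cysteine tRNA loci past the filter, ordered by mean level from the top, in the 3 comparisons. The interval is narrowest for chr6.trna1015, and an interval leaves 0 out only for chr6.trna1020 in Khdc3-null against wild type and for chr6.trna162 in descendant against wild type libraries, before adjustment.

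Over all 57 loci 47 had a lower mean in descendant than in Khdc3-null libraries, or 82.5%, against 44.0% of all listed features. The median log2 change without a filter was -0.34, against 0.04 over all features and 0.04 over the 378 other tRNA loci. Of the latter 45.8% had a log2 change below 0. Among 18 other isotypes with at least 5 loci past the filter, medians ran from -0.34 for isoleucine to 0.39 for glutamine, beside -0.35 for cysteine. At 11 loci, 19.3%, every descendant library was below every Khdc3-null library, beside 1.72% of all listed features, and at 0 loci was every one above, beside 1.63%. All 11 lie on chromosome 6: chr6.trna166, chr6.trna173, chr6.trna175, chr6.trna178, chr6.trna181, chr6.trna1009, chr6.trna1011, chr6.trna1012, chr6.trna1016, chr6.trna1022 and chr6.trna1031. All but chr6.trna1016 were below the filter, and the 11 had 0 to 8 reads per descendant library and 1 to 17 reads per Khdc3-null library. Among the 104 other features below the filter, 1 had every descendant library lower, against 10 of the 37 cysteine loci there. Those 104 were not matched to the cysteine loci in level, and equal values, such as ties at 0, count as overlap. The lowest descendant mean of the 11, 0.161 RPM, was at chr6.trna1009, with 0, 0.13, 0.34 and 0.18 RPM in descendant libraries, against 1.31, 0.34, 0.88 and 1.78 RPM in Khdc3-null libraries. The highest descendant and the lowest Khdc3-null library there were both at 0.34 RPM after rounding, so that the groups were barely apart.

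The smallest p without the filter was that of chr6.trna1031, with 0.36, 0.65, 0.84 and 0.36 RPM in descendant libraries, against 1.84, 1.71, 1.61 and 1.23 RPM in Khdc3-null libraries. Its log2 change of RPM + 1 was -0.75 (SE 0.12), and it did not pass either (adjusted p = 0.157 by limma without a filter). The means were 0.553 RPM in descendant and 1.60 RPM in Khdc3-null libraries, where the added 1 makes the change smaller. Wild type libraries had 0.87, 1.08, 1.23 and 1.25 RPM, above every descendant library and overlapping with the lowest Khdc3-null library. The number of loci with every descendant library lower was 17 without Khdc3-null replicate 2, where it was 2.71% over all features. It lay between 11 and 14 when any other single library of the 2 groups was left out, beside 2.51% to 3.65% of all features. Leaving out a library can only keep or raise such a count, so these ranges do not measure its stability. Under the other scalings of the libraries it was 9 to 11, beside 1.03% to 1.97% of all features. Summed, the 37 loci below the filter gave 18.1 to 42.5 RPM in descendant and 32.9 to 52.4 RPM in Khdc3-null libraries, which overlapped. The comparisons of descendant libraries with Khdc3-null and with wild type libraries share the descendant libraries, so that the low descendant values at chr6.trna1009 and chr6.trna1031 enter both.

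At the remaining abundant loci all groups overlapped. The locus chr6.trna1014 had 7.53, 1.83, 11.6 and 7.53 RPM in descendant libraries, 7.89, 7.54, 7.89 and 9.18 RPM in Khdc3-null libraries, and 8.10, 8.31, 6.67 and 11.1 RPM in wild type libraries. Descendant replicate 2 was lowest and descendant replicate 3 highest of the 12. The locus chr11.trna791 had 4.66, 6.68, 3.69 and 2.69 RPM in descendant libraries, 3.95, 3.08, 9.06 and 6.17 RPM in Khdc3-null libraries, and 5.64, 5.70, 7.41 and 4.99 RPM in wild type libraries. Khdc3-null libraries spanned the widest range there. At chr6.trna157 descendant libraries had 3.23, 6.15, 2.18 and 3.05 RPM, Khdc3-null libraries 6.58, 3.43, 6.87 and 6.58 RPM, and wild type libraries 6.36, 3.85, 6.67 and 5.27 RPM. Descendant replicate 2 lay within the ranges of both other groups, and Khdc3-null replicate 2 within the descendant range.

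Several low loci were high in single libraries. The highest value below the filter was 10.1 RPM, or 77 reads, at chr6.trna174 in descendant replicate 2, where the other 11 libraries had 0.34 to 1.08 RPM. The locus chr6.trna1018 had 5.54 RPM in descendant replicate 3 and 0 in 4 libraries. In Khdc3-null replicate 1, the library that stood apart, chr6.trna170, chr6.trna177 and chr6.trna179 reached 5.79, 4.73 and 9.73 RPM, and in descendant replicate 4 chr6.trna170 and chr6.trna177 reached 4.84 and 4.48 RPM. These 3 loci belong to the lower run of numbers on chromosome 6. Across the 37 loci the variance of reads between loci was 0.904 to 1.95 times the mean in wild type libraries. It was 19.7 times in descendant replicate 2, where chr6.trna174 is the high value. Descendant replicates 3 and 4, at 6.72 and 4.15 times, and Khdc3-null replicate 1, at 3.39 times, were also above the wild type range. Of the 56 loci other than chr6.trna1015, 16 were highest in Khdc3-null replicate 4, 13 in wild type replicate 3 and 10 in Khdc3-null replicate 1.

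Across the 12 libraries the 6 loci outside chromosome 6 that passed the filter varied together, with a median Pearson r of 0.73 over their 15 pairs on log2 of RPM + 1. Over the 91 pairs of chromosome 6 loci the median was 0.14, with a range of -0.63 to 0.81, and over the 19 pairs with chr6.trna1015 it was 0.02. These sets differ in level, since the 6 loci averaged 3.45 to 5.31 RPM and chromosome 6 loci past the filter went down to 1.07 RPM. The part of level in this contrast was not tested. The closest pair was chr6.trna157 and chr11.trna1433, at 0.88, and the most opposed was chr6.trna1023 and chr11.trna1433, at -0.72. These values describe the same 12 libraries and share their depth, the group differences are part of them, and reads shared between near-identical loci would raise them.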

How the data were processed

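The authors deposited 1 table of RPM values (reads per fixed number of mapped reads) with 1 added to each, for 12 small RNA libraries. Per the labels' protocols, RNA was isolated with PicoPure, and NEXTFLEX small RNA chemistry was used for the libraries. Alignment used Bowtie2 and mm10, per the submitters' processing notes; the version and the treatment of reads with several alignments are not given in the sources used here. After 1 was subtracted, 100% of values were whole reads within 0.01 reads, which gave depths of 2918620 to 7640554 mapped reads.

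Groups were taken from the genotype labels; replicate numbers follow the order of deposition and pair nothing. The 1889 features that reached 1.61 RPM in 4 or more libraries (the value of 10 reads in a library of median depth) were fitted together on log2(RPM + 1) with limma 3.58.1 in R 4.3.3, with 3 group means and a variance trend, and p-values were adjusted over all features (Benjamini-Hochberg, threshold 0.05). Sums and counts of loci whose groups do not overlap carry no p. RefSeq positions are on GRCm38.p6. A count test planned for the recovered reads was not run; limma-voom was run on them in its place.

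Loci were named by rule: the 6 of highest mean, the 3 of smallest p per comparison, any locus called, any whose groups do not overlap, and the highest value below the filter. Other loci named, those high in 1 library and those of the closest pairs among them, were chosen after their values were seen. The cysteine loci, the marker lists and the tests were chosen with earlier results of these data known.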

Additional observations from a re-analysis of the deposited data

Results flagged for a closer look

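For the loci that the naming rule took and for sums of cysteine loci, 29 quantities in all, the extreme libraries of each group were compared with the others by Dixon's criterion. In 9 of 87 groups a library lay far from the rest, where chance gives about 1 in 20 for independent, normally distributed values. These quantities overlap, many were picked by their values in these libraries, and several rest on few reads. The 9 can therefore not be read against that rate. At chr6.trna1023 descendant replicate 2 had 7.07 RPM, against 12.0 to 12.8 RPM in the other descendant libraries. At chr6.trna157 Khdc3-null replicate 2 had 3.43 RPM, against 6.58 to 6.87 RPM in the rest of its group. Wild type replicate 4 had 4.99 RPM at chr6.trna179, against 0.25 to 0.87 RPM, and 1.39 RPM at chr6.trna1009, against 0.72 to 0.77 RPM. Descendant replicate 4 had 4.48 RPM at chr6.trna177 and 4.84 RPM at chr6.trna170, each against 0.34 to 0.72 RPM in the other descendant libraries. Khdc3-null replicate 1 had 4.73 RPM at chr6.trna177, against 1.17 to 1.65 RPM. Wild type replicate 3 had 2.22 RPM at chr6.trna1012, against 0.46 to 0.69 RPM. The sum of the 56 loci other than chr6.trna1015 was 77.8 RPM in descendant replicate 1, against 103 to 107 RPM in the other descendant libraries.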

How the results depend on the processing

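No cysteine locus passed the adjusted threshold in any comparison under any setting run. No paired analysis was possible because the labels give no pairing of libraries. The planned test of recovered reads with a count model, and its scaling factors, were not run. Among all features, 1 was called in Khdc3-null against wild type libraries without a filter and without Khdc3-null replicate 1 (range 0 to 1 with 1 library left out). Scaling tRNA loci to all tRNA reads gave them a median log2 change of -0.18 in Khdc3-null against wild type libraries, against -0.10 as reported, and of 0.14 in descendant against Khdc3-null libraries, against 0.02 as reported. Counts of non-overlapping loci under other scalings and with libraries left out were added after seeing the data. In descendant against wild type libraries 3 loci had every descendant library lower under tRNA scaling, beside 1.08% of all listed features. With 1 library left out this count was 5 to 10, beside 2.66% to 4.04%. In descendant against Khdc3-null libraries it was then 11 to 17, beside 2.51% to 3.65%. In Khdc3-null against wild type libraries every Khdc3-null library was then lower at 0 to 1 loci, beside 2.76% to 5.12%. Leaving out a library can only keep or raise these counts. The number of loci with a lower mean in Khdc3-null than in wild type libraries was 13 to 28, beside 48.6% to 58.5%. Signs of uncalled log2 changes near 0 turned in some settings. In Khdc3-null against wild type libraries this was 0.0012 for chr6.trna1014 and 0.030 for chr11.trna1433 with median-of-ratios scaling, 0.025 for chr11.trna791, 0.049 for chr6.trna162 and 0.062 for chr11.trna1433 with limma-voom, and -0.012 for chr6.trna157 and -0.023 for chr11.trna1432 with tRNA scaling. In descendant against wild type libraries chr6.trna179 came to 0.018 with 0.5 RPM added and to 0.021 with sample quality weights. With 1 library left out, the log2 changes of Khdc3-null against wild type libraries ranged from -0.10 to 0.27 for chr11.trna1432, -0.14 to 0.11 for chr11.trna1433, -0.39 to 0.043 for chr11.trna791, -0.15 to 0.072 for chr6.trna1014, -0.082 to 0.25 for chr6.trna157 and -0.68 to 0.13 for chr6.trna162. For descendant against wild type libraries they ranged from -0.67 to 0.044 for chr6.trna1014, -0.18 to 0.058 for chr6.trna1015 and -0.32 to 0.43 for chr6.trna179, and for descendant against Khdc3-null libraries from -0.62 to 0.093 for chr6.trna1014 and -0.021 to 0.22 for chr6.trna1015. The cause of these turns was not tested. Depth limits the 37 loci below the filter, of whose values 144 of 444 are 3 reads or fewer.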
